A study of Homo sapiens with 2 samples.

Results

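The genes described here are the RAB genes, which encode the largest branch of the RAS-like small GTPases. Members were the protein-coding genes of the RefSeq annotation of GRCh38 whose symbol is RAB, a number and at most 1 letter, and 63 of 20037 protein-coding genes met this rule. The rule used no measured value. RAB proteins switch between a GTP-bound form that sits on a membrane and a GDP-bound form that is held in the cytosol. Exchange factors load GTP, GTPase-activating proteins end the active state, and the active RAB recruits effectors that move, tether and fuse vesicles. Each RAB marks particular membranes, so the family is often described as the address system of the cell, and in breast cancer cells it is studied for receptor recycling, integrin traffic and the release of vesicles.

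Chromatin peaks were profiled for RUNX2, a DNA-binding transcription factor, and for MTA1, which belongs to the NuRD complex that remodels nucleosomes and removes histone acetyl groups. The cells were MDA-MB-231, a mesenchymal-like cell line of triple-negative breast cancer, with no treatment given in the labels. The method was CUT&Tag, in which an antibody brings a transposase to the bound chromatin and the tagged fragments are sequenced, and the study asked which genes both proteins occupy. There was 1 library for each antibody and no control library was used here, so no value has a replicate, no test was possible, and any difference between RUNX2 and MTA1 is a difference between 2 libraries. The labels and the methods name different suppliers for both antibodies, and the labels describe ligation of adaptors to precipitated DNA, which is not the usual CUT&Tag preparation, so the product and the preparation behind each list are uncertain.

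The RUNX2 list held 61700 peaks on chromosomes 1 to 22, X and Y and the MTA1 list 42683. The read depth is unknown, and each list holds only what passed its own threshold, so a gene without a peak may carry a weak signal or none. Scores ran from 3.0 to 108 with a median of 6.70 for RUNX2, and from 3.01 to 98.7 with a median of 7.58 for MTA1. Since the scale of the score is not stated, a peak is placed by the share of its own list that scores lower, called its percentile below, with rank 1 for the highest score. A peak with any base no farther than 1 kb from either gene end is called an end peak, and a peak within the gene but farther than 1 kb from both ends is called an inside peak. Of 10 mesenchymal marker genes of this line, 8 had a RUNX2 and 7 an MTA1 end peak, and of 10 luminal genes that it is known to lack, 2 and 3, but a peak does not measure expression.

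The submitters' processing notes name hg19, but the listed positions match GRCh38. At the listed positions 49.9% of all protein-coding genes had a RUNX2 end peak and 50.9% an MTA1 end peak, against 13.6% and 10.5% after the lists were moved by 100 kb. Among the RAB genes only 11 and 10 of 63 had an end peak after this move. Coordinates below are therefore given as listed and read as GRCh38.

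Promoter sequences are shown first, because end peaks with high scores lay over several of them. RefSeq promoters of 300 bases in GRCh38.p14, most of each upstream of an annotated transcript start, were given for 50 of the 63 members. All sequences are written on the strand of the gene from 5′ to 3′, and where a gene had several entries the one most covered by peaks is shown. Capitals mark motifs searched on both strands, namely the RUNX core TGTGGT or TGCGGT, AP-1 TGACTCA, CRE TGACGTCA, the CCAAT box CCAAT, the GC box GGGCGG and the ETS site CCGGAAGT. RAB30 (chr11:83071848-83072147, minus strand) and RAB6A (chr11:73761025-73761324, minus strand) carried the MTA1 end peaks that ranked highest in the family. RAB5C (chr17:42154940-42155239, minus strand) followed them, and RAB3A (chr19:18203993-18204292, minus strand) ranked lower but within the first 8. RAB10 (chr2:26033834-26034133, plus strand) and RAB11B (chr19:8390110-8390409, plus strand) carried the RUNX2 end peaks that ranked highest in the family.
RAB30: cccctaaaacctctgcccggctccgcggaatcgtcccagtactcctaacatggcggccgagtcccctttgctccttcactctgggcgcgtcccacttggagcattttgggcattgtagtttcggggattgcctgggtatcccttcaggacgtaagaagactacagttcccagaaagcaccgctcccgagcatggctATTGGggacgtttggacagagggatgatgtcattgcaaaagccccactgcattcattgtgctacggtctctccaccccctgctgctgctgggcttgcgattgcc
RAB6A: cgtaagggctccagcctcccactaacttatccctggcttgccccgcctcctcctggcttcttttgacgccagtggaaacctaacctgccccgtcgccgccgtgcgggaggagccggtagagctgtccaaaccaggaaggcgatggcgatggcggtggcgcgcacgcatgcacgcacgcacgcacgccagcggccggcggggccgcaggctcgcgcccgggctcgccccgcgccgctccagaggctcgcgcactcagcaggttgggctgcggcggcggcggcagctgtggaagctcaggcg
RAB5C: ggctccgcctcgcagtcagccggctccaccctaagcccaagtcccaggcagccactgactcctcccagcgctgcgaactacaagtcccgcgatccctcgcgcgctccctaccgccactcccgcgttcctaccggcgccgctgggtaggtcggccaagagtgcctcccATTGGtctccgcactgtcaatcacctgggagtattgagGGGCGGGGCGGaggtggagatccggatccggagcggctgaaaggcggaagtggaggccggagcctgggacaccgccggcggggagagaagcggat
RAB3A: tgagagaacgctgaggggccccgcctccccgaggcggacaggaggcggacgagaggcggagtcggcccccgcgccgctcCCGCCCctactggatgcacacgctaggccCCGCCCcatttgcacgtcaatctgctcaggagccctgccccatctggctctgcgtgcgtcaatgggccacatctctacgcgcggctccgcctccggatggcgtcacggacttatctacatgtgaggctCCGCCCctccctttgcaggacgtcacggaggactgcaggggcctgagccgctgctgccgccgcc
RAB10: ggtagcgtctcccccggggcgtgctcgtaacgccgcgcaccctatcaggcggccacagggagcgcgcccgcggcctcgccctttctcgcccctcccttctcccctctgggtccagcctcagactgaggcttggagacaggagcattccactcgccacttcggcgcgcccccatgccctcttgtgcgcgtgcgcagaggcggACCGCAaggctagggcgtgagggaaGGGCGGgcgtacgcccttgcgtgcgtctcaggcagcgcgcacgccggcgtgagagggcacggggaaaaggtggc
RAB11B: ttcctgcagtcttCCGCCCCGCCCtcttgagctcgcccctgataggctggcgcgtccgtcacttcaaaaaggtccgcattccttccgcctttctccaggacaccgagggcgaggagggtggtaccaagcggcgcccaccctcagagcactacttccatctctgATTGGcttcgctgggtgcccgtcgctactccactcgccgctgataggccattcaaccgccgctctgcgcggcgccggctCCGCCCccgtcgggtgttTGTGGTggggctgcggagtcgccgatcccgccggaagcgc

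As a contrast, the promoters of a close relative of RAB6A and of a close relative of RAB3A are shown, neither of which carried an end peak in either list. These are RAB6B (chr3:133895833-133896132, minus strand), the neuronal form of RAB6, and RAB3D (chr19:11339608-11339907, minus strand), a secretory granule RAB. Both were chosen after their values were known.
RAB6B: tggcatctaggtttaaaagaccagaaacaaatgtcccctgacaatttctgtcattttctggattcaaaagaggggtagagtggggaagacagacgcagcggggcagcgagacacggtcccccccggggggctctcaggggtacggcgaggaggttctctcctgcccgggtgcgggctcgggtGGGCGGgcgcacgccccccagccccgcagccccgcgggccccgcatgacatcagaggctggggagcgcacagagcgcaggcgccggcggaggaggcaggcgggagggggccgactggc
RAB3D: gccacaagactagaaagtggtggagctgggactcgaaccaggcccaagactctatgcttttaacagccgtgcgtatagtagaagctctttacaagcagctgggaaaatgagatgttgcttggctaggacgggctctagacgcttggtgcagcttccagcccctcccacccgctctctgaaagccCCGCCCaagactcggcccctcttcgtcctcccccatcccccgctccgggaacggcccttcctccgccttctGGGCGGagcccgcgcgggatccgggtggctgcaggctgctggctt

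RUNX2 peaks covered 235 of the 300 bases shown for RAB30, 300 for RAB6A, 260 for RAB5C, 273 for RAB3A and 300 for both RAB10 and RAB11B. MTA1 peaks covered 267, 281, 300, 276, 300 and 300 bases in the same order, and no base of the RAB6B or RAB3D promoter lay in a peak. The RUNX core was found in RAB10, as TGCGGT on the opposite strand from base 202 (counted from 1 at the 5′ end), and in RAB11B, as TGTGGT from base 261. It was not found in the windows of RAB30, RAB6A, RAB5C or RAB3A. Of all 15843 promoters, 18.9% held the RUNX core in this window, and 20.5% of the 6435 whose window was touched by peaks of both lists. TGTGGT alone was in 10.9% of all promoters and 9.26% of these 6435, and TGCGGT in 8.89% and 12.4%. For a gene with several entries the one most covered by peaks was searched. The GC box was in the windows of RAB5C, RAB3A, RAB10 and RAB11B but also in the promoters of RAB6B and RAB3D, which no peak touched. It was held by 60.1% of all promoters and 77.6% of those 6435. A CCAAT box was in RAB30, RAB5C and RAB11B, against 36.6% of all promoters and 43.2% of those 6435. The AP-1, CRE and ETS letters, held by 3.82%, 2.72% and 6.31% of all promoters, were in none of the 8 windows shown. Of those 6435, 3.11%, 4.16% and 11.2% held them. The CG dinucleotide occurred 37 times in RAB6A, 35 in RAB10, 32 in RAB11B, 30 in RAB3A and 29 in RAB5C, and 24 times in RAB6B, 18 in RAB3D and 15 in RAB30, against a median of 23 (quartiles 9 and 32) over all promoters. RAB30 thus had the fewest CG of these 8 and the highest MTA1 rank. The 50 of 63 members are 79.4%, below the 80% set for such a check. For this reason no share of members with any of these motifs and no base composition is given for the family.

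A RUNX2 end peak was present at 39 of 63 members, or 61.9% (exact 95% binomial interval 48.8% to 73.9%), against 49.9% of all protein-coding genes. An MTA1 end peak was present at 41 members, or 65.1% (52.0% to 76.7%), against 50.9%. Both were present at 35 members, or 55.6% (42.5% to 68.1%), against 43.9%, and neither at 18 members, or 28.6% (17.9% to 41.3%), against 43.1%. The intervals for RUNX2 and for both include the share of all genes, and those for MTA1 and for neither do not. The intervals cover counting error only and treat the members as independent, which relatives that arose by duplication are not.

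The members stood farther from all genes in the strongest MTA1 peaks. An MTA1 end peak among the top 10% of the list by score was present at 18 members, or 28.6% (17.9% to 41.3%), against 13.6% of all genes. The corresponding RUNX2 count was 9 members, or 14.3% (6.75% to 25.4%), against 8.77%. These 9 were RAB1A, RAB5B, RAB5C, RAB6A, RAB8A, RAB10, RAB11B, RAB14 and RAB18, and all 9 were also among the 18 with an MTA1 peak in the top 10%. Among these 18, the MTA1 peaks of RAB1B, RAB2B, RAB4B, RAB5A, RAB5B, RAB14 and RAB34 also lay within 1 kb of an end of another protein-coding gene. The share in the top 10% without such shared peaks was not counted. The median percentile below of the highest RUNX2 end peak was 78.7% over 39 members (quartiles 55.2% and 86.4%), against 71.3% over all genes with such a peak. For MTA1 it was 80.9% over 41 members (57.1% and 97.7%), against 75.2%.

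**Figure D1:**
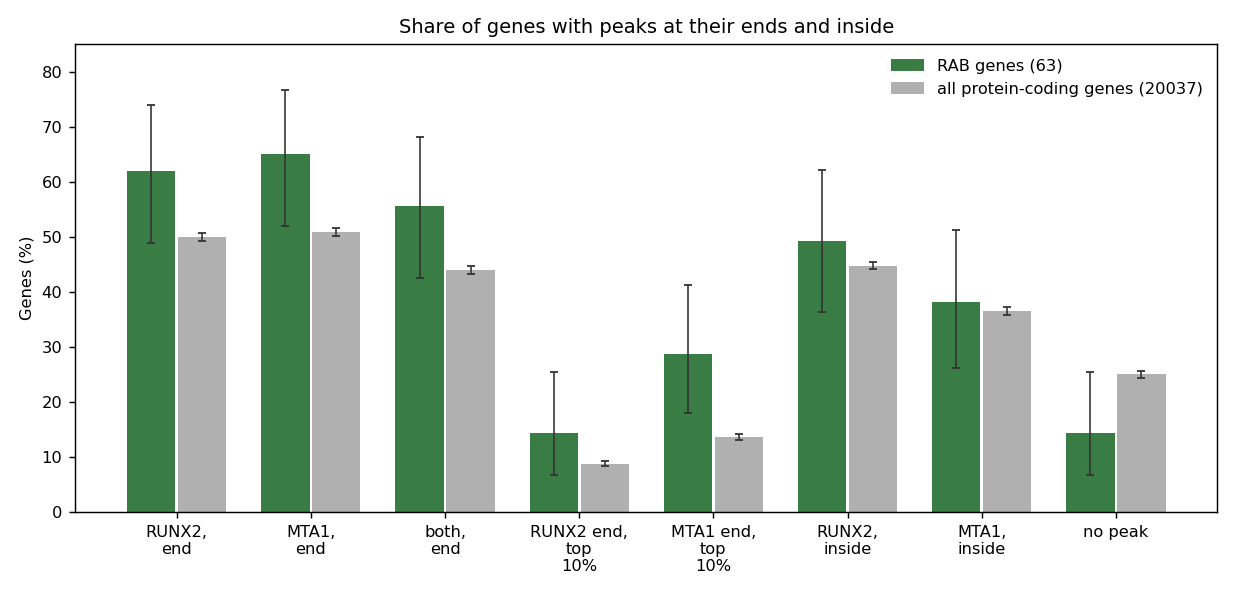
Bars give the share of genes (%, y axis) with the kind of peak named on the x axis, for the 63 RAB genes and for all 20037 protein-coding genes, and error bars are exact 95% binomial intervals, which cover counting error only. The widest relative gap is in MTA1 end peaks of the top 10%, at 28.6% against 13.6%, while the inside shares are close.

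The peaks of the lists mostly coincided. Overlapping RUNX2 and MTA1 end peaks (at least 1 shared bp) were found at 34 members, or 54.0% (40.9% to 66.6%), against 41.8% of all genes. This was 97.1% of the 35 members with both, against 95.4% of all genes with both. The exception was RAB29, a RAB of lysosomes and the trans-Golgi network, where the MTA1 peak spanned the gene start and the RUNX2 peak lay upstream of it without contact. Of members with a RUNX2 end peak, 89.7% also had an MTA1 end peak (88.0% of all genes), and 85.4% the other way round (86.1% of all genes). Co-occurrence at RAB genes was thus close to that at all genes.

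Among the 35 members with both peaks, the MTA1 percentile was the higher of the pair at 26, or 74.3%, against 62.0% of the 8791 genes with both. The 9 with a higher RUNX2 percentile included RAB10 and RAB11B by narrow margins, and RAB2A, RAB4A, RAB24, RAB26, RAB36, RAB38 and RAB39A. Spearman's rank correlation between the percentiles was 0.771 over these 35 genes and 0.641 over all genes with both. These are descriptions across genes that share the same 2 libraries, and genes are not replicates.

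**Figure D2:**
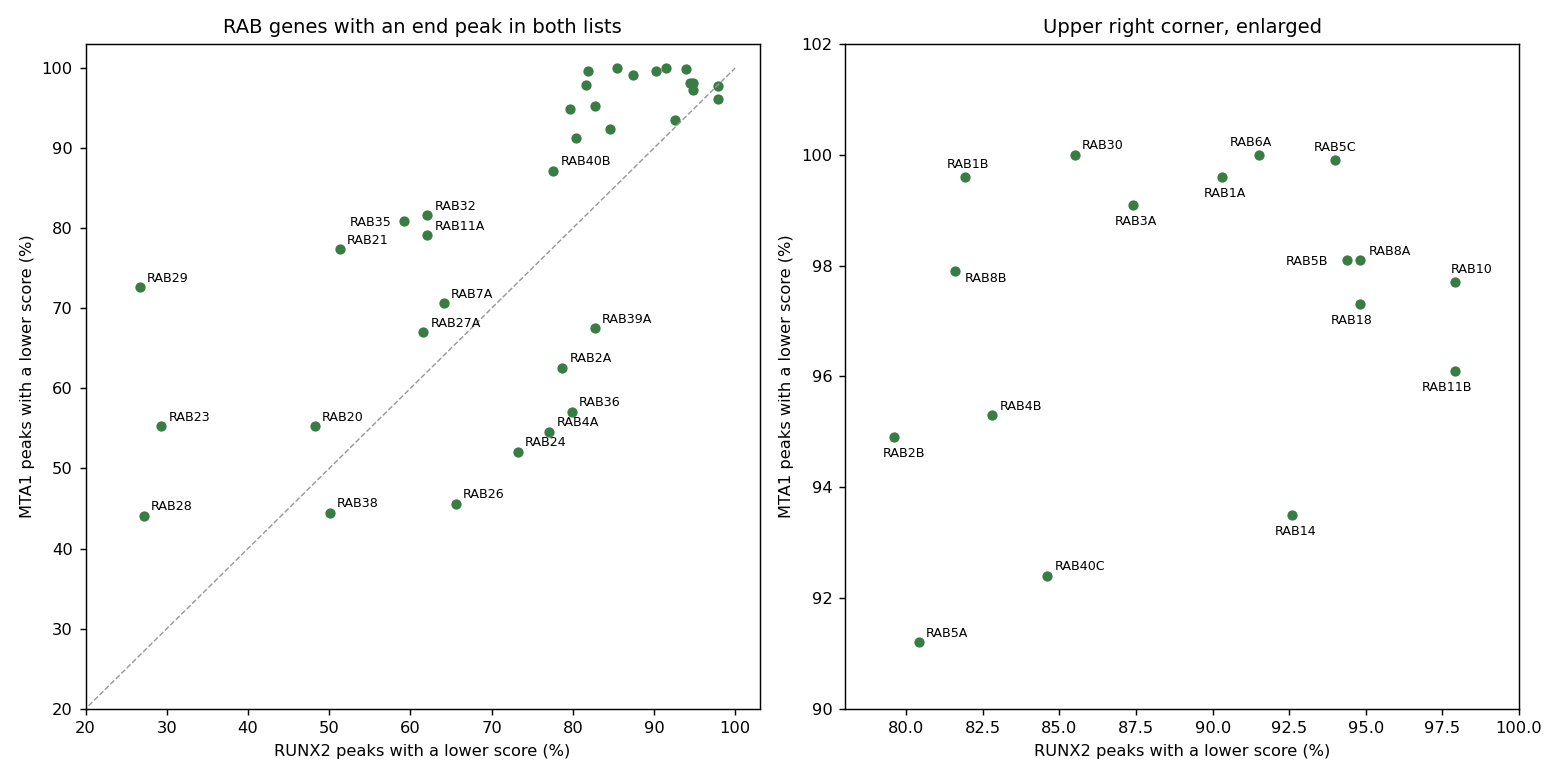
Each point is 1 of the 35 RAB genes with an end peak in both lists, placed by the share of RUNX2 peaks (x axis, %) and of MTA1 peaks (y axis, %) that score lower than its highest end peak; the dashed line marks equal values and the right panel enlarges the upper right corner. Most points, 26 of 35, lie above the line, and a group of members sits near the top of both lists.

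Members were ordered by the membrane on which they are known to act, in lists made with earlier results of these data known. The group of 19 RABs of the endoplasmic reticulum and Golgi was split: 9 had a RUNX2 end peak, 10 an MTA1 end peak and 9 neither, and 5 had no peak anywhere. These shares were 47.4%, 52.6%, 47.4% and 26.3%, near the 49.9%, 50.9%, 43.1% and 25.0% of all genes. The group nevertheless held 7 of the 18 members with an MTA1 peak in the top 10%. RAB30, a Golgi RAB, had the MTA1 peak ranked 3 of 42683, with a score of 95.4 at chr11:83071712-83072114, while its RUNX2 peak at chr11:83071757-83072082 scored 18.4 and ranked 8965 of 61700, with 85.5% of the list below. Both peaks spanned the annotated gene start, and the divergent transcript RAB30-DT also has an end within 1 kb of them. RAB30 is therefore near the top of the MTA1 list and outside the top 10% of the RUNX2 list.

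RAB6A, which runs retrograde transport through the Golgi, scored 73.2 in MTA1 (rank 19, chr11:73761044-73761472) and 25.5 in RUNX2 (rank 5224, chr11:73760919-73761427, 91.5% of the list below). Both peaks spanned its start. Its relatives differed from it: RAB6B had a lone RUNX2 inside peak, and RAB6C and RAB6D, short near-identical copies of RAB6A, had no peak in either list. Reads of such copies may not map uniquely, so a missing peak there is uncertain.

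RAB1A and RAB1B, the close relatives that carry cargo from the endoplasmic reticulum to the Golgi, had almost equal MTA1 scores of 54.9 (rank 173) and 55.5 (rank 164). In the RUNX2 list they stood apart, RAB1A with a score of 23.7 and 90.3% of the list below and RAB1B with 15.7 and 81.9%. The RAB1B peaks at chr11:66268207-66268609 (RUNX2) and chr11:66268312-66268678 (MTA1) also lay within 1 kb of an end of KLC2, so they cannot be assigned to RAB1B alone. RAB18, a RAB of the endoplasmic reticulum and lipid droplets, had the highest mean position of this group over both lists, with a RUNX2 score of 32.1 (94.8% below) at chr10:27504020-27504324 and an MTA1 score of 36.2 (97.3% below) at chr10:27504021-27504425.

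All 9 RABs of the early endosome had an end peak of RUNX2 or MTA1, 8 of RUNX2 and 7 of MTA1. With so few genes this allows a share of up to 33.6% without an end peak, against 43.1% of all genes. However, the only end peaks of RAB17 (RUNX2, 99 bp) and RAB22A (MTA1, 116 bp) had the narrowest width of their list. When peaks of that width are left out, these genes have no end peak and the bound does not hold. RAB5A, RAB5B and RAB5C, which drive fusion of early endosomes, each had overlapping peaks of both. RAB5C scored 68.6 in MTA1 (rank 35, 99.9% below, chr17:42154930-42155281) and 30.1 in RUNX2 (rank 3698, 94.0% below, chr17:42154980-42155239). RAB5B scored 39.5 in MTA1 (98.1% below, chr12:55973495-55974058) and 30.9 in RUNX2 (94.4% below, chr12:55973521-55974093), with the peaks also within 1 kb of an end of CDK2. The low end of this group was RAB22A, an early endosome sorting RAB, whose only end peak was an MTA1 peak with a score of 3.20 and 1.29% of the list below. The 3 RAB5 genes were thus alike in having strong peaks, while the rest of the group ranged down to the bottom of the lists.

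The 12 RABs of recycling endosomes and plasma membrane delivery also all had an end peak, 10 of RUNX2, 11 of MTA1 and 9 of both. This allows a share of up to 26.5% without an end peak, against 43.1% of all genes. Here too, the only end peaks of RAB15 (RUNX2, 99 bp) and RAB25 (MTA1, 116 bp) had the narrowest width of their list. Without peaks of that width the bound does not hold. The group held 4 of the 9 RUNX2 peaks and 6 of the 18 MTA1 peaks in the top 10%. RAB10, which brings exocytic vesicles to the plasma membrane, had the highest RUNX2 end-peak score of the family, 45.1 (rank 1268, 97.9% below), at chr2:26033817-26034258, and an MTA1 score of 37.6 (97.7% below) at chr2:26033818-26034145. The centres of these peaks lay 752 and 696 bp inside the start of the gene as annotated, over its promoter entry, which they covered in full. RAB11B, a recycling endosome RAB, scored 45.0 in RUNX2 (97.9% below, chr19:8390028-8390448) and 32.3 in MTA1 (96.1% below, chr19:8389929-8390444), and a second, weaker pair of peaks followed inside the gene. RAB10 and RAB11B were alike in both lists.

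RAB8A, a RAB of transport to the plasma membrane and the primary cilium, scored 32.2 in RUNX2 (94.8% below, chr19:16111276-16111880) and 40.0 in MTA1 (98.1% below, chr19:16111274-16111900). Its relative RAB8B had an MTA1 peak nearly as strong, with a score of 38.4 and 97.9% below, but a weaker RUNX2 peak, with a score of 15.6 and 81.6% below. RAB14, which links the Golgi and endosomes to the plasma membrane, scored 27.3 in RUNX2 (92.6% below) and 26.6 in MTA1 (93.5% below), and these peaks also lay within 1 kb of an end of GSN. At the other end of this group, RAB25, the epithelial relative of RAB11, had no RUNX2 end peak and an MTA1 peak with a score of 4.36 and 9.26% below, at the far end of the gene.

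Of the 8 RABs of the late endosome and lysosome, 0 had an end peak in the top 10% of either list, which allows a share of up to 36.9% for each, so a difference from the 8.77% (RUNX2) and 13.6% (MTA1) of all genes is not detectable with so few genes. Of these 8 genes, 5 had a RUNX2 end peak, 5 an MTA1 end peak and 4 both, among them RAB7A, the RAB of late endosome maturation. The highest by mean position was RAB32, a RAB of lysosome-related organelles, with a RUNX2 score of 8.53 (62.1% below) and an MTA1 score of 15.9 (81.6% below). RAB9B, the X-linked relative of RAB9A, had no peak in either list.

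RABs of regulated secretion had end peaks least often of the groups with more than 4 genes, 3 of 9 for RUNX2 and 4 of 9 for MTA1. The intervals were 7.49% to 70.1% and 13.7% to 78.8%, and they include the 49.9% and 50.9% of all genes. RAB3A, which acts in exocytosis of synaptic vesicles and secretory granules, stood apart from the rest of its group with an MTA1 score of 47.8 (rank 373, 99.1% below, chr19:18204017-18204445) and a RUNX2 score of 20.2 (rank 7797, 87.4% below, chr19:18204020-18204450). Its relatives were unlike it: RAB3B had inside peaks only, RAB3C a middling MTA1 end peak, and RAB3D no peak. RAB44, a large atypical RAB, had RUNX2 inside peaks only. No explanation of this contrast between RAB3A and its relatives was tested.

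Of the remaining genes, RAB23, a regulator of Hedgehog signalling, and RAB28, both tied to the cilium, had end peaks in both lists at lower positions. RAB23 scored 5.22 in RUNX2 (29.3% below) and 8.36 in MTA1 (55.3% below), near the start of PRIM2 as well. RAB28 scored 5.11 in RUNX2 (27.2% below) and 6.99 in MTA1 (44.1% below). Among the RAB40 genes, which carry a SOCS box that binds cullin ligases, RAB40C was highest with 17.7 in RUNX2 (84.6% below) and 24.9 in MTA1 (92.4% below), and RAB40B had both peaks too. RAB40A and the ungrouped RAB42 had no peak in either list.

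**Figure D3:**
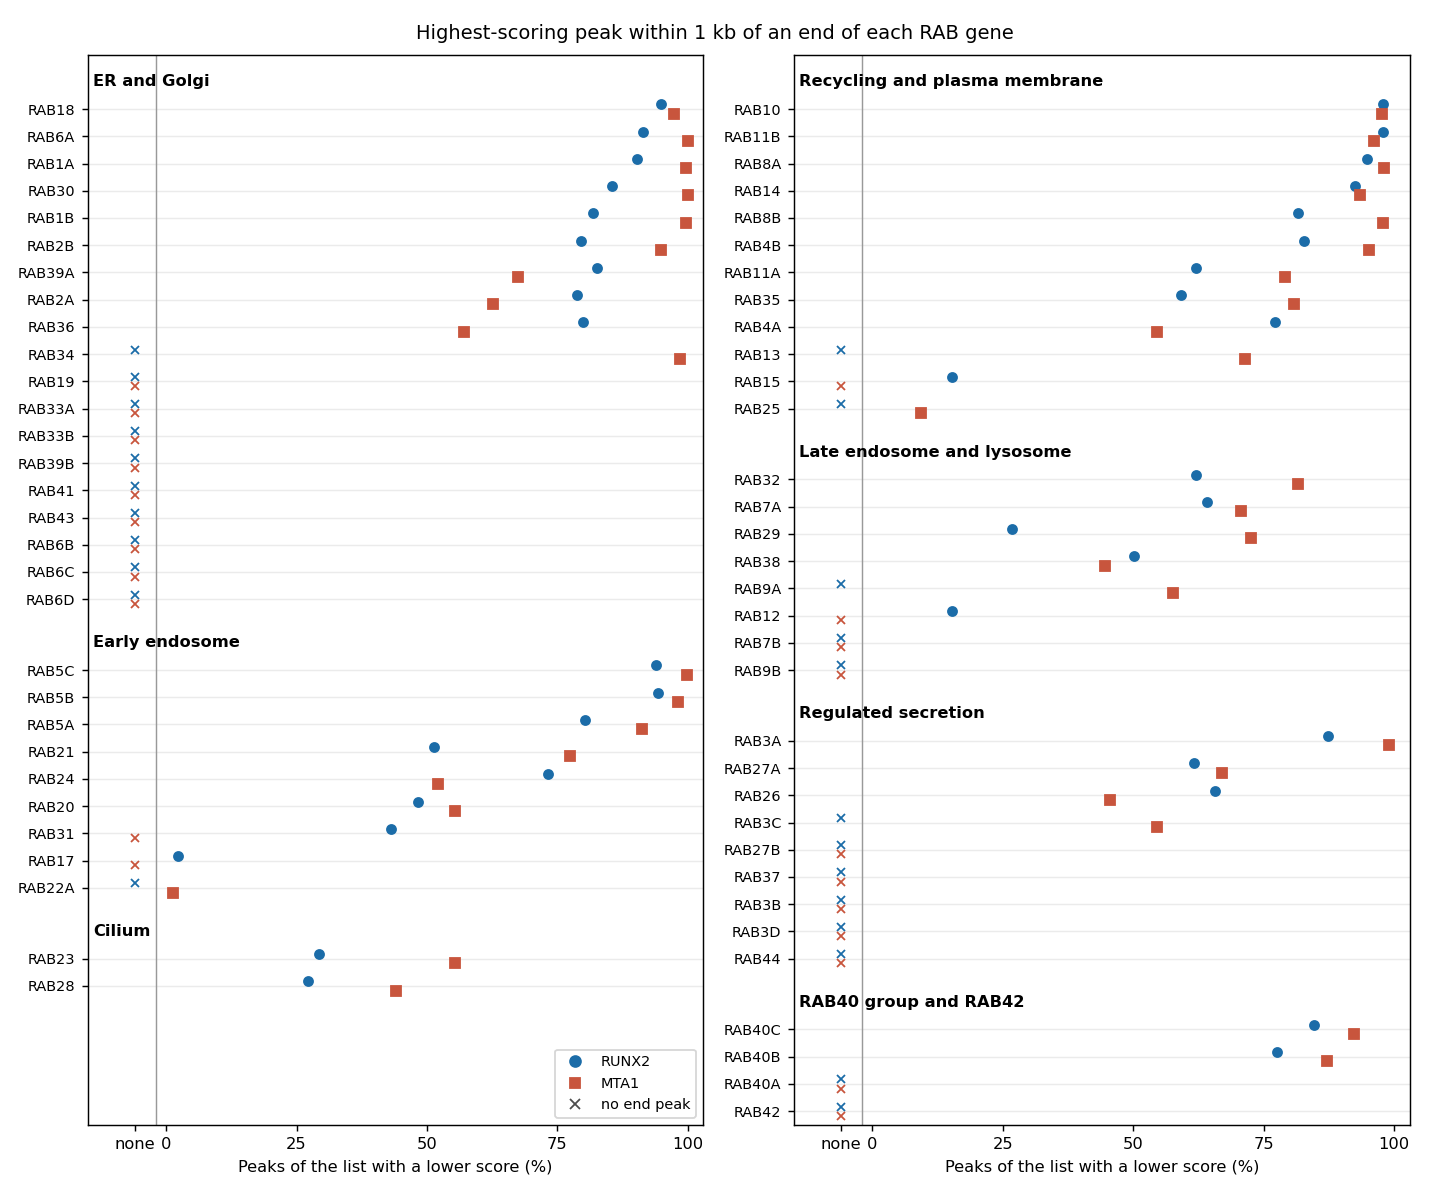
Every one of the 63 RAB genes is shown in its group, with the share of the list (x axis, %) that scores lower than its highest RUNX2 (circle) or MTA1 (square) end peak; a cross under none marks no end peak in that list. Early endosome and recycling RABs all carry a symbol for at least 1 protein.

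Relatives with the same number were compared next, as 14 subfamilies with 34 members. In 6 of them (RAB1, RAB2, RAB4, RAB5, RAB8 and RAB11) every member had end peaks of both proteins. In 7 (RAB3, RAB6, RAB7, RAB9, RAB27, RAB39 and RAB40) members differed, and in RAB33 no member had an end peak. The inside peaks of RAB33B, at up to 68.1% (RUNX2) and 77.7% (MTA1) below, lay within 1 kb of an end of the antisense transcript RAB33B-AS1. RAB33B had no promoter entry, so whether a start lies there was not examined. Members of a subfamily have similar coding sequences but lie at different loci.

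An end peak in a single list was found at 10 members, and most of these peaks were low. A RUNX2 end peak without an MTA1 end peak was present at RAB12, RAB15, RAB17 and RAB31. RAB12, a RAB of transport to lysosomes, and RAB15, a recycling RAB, shared a score of 4.42 (15.3% below), RAB17, an epithelial transcytosis RAB, scored 3.22 (2.26% below) and RAB31, which links the trans-Golgi network to endosomes, scored 5.87 (43.2% below). All 4 were below the median of the RUNX2 list.

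An MTA1 end peak without a RUNX2 end peak was present at RAB3C, RAB9A, RAB13, RAB22A, RAB25 and RAB34. RAB34, a Golgi and cilium RAB, was the exception in strength, with a peak of score 42.8 (98.5% below) at chr17:28719252-28720038. That peak was centred at -1217 bp from the RAB34 start and overlapped RPL23A, a ribosomal protein gene, and a second peak nearer the start of RAB34 scored 7.19 (46.4% below). RAB13, a RAB of junction delivery, scored 11.8 (71.5% below), and its peak spanned the end of the gene annotated as its start but also lay on RPS27, another ribosomal protein gene. No peak touched either of the 2 promoter entries of RAB13, which lie farther inside the gene. An overlapping pair of inside peaks lay close upstream of the entry at chr1:153986290-153986589. It was a RUNX2 peak at chr1:153986830-153986928 (score 4.87, 24.5% below) and an MTA1 peak at chr1:153986862-153987024 (10.7, 67.4% below). RAB9A, which returns receptors from late endosomes to the Golgi, scored 8.73 (57.7% below) and RAB3C 8.25 (54.6% below). At RAB34 and RAB13 the highest end peak cannot be assigned to the RAB gene over its neighbour.

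The highest RUNX2 end peak also lay within 1 kb of an end of another protein-coding gene at 9 of 39 members, or 23.1%, against 30.1% of all genes with such a peak. For the highest MTA1 end peak this held at 11 of 41 members, or 26.8%, against 31.4%. Without such shared peaks, an alternative chosen after seeing the data, 47.6% of RAB genes kept a RUNX2 end peak and 50.8% an MTA1 end peak, against 36.1% and 36.1% of all genes. The median percentile below of the highest remaining end peak was then 77.3% for RUNX2 (68.0% over all genes) and 75.0% for MTA1 (71.1%).

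The end peaks lay mainly at gene starts. Of the 50 members with a promoter entry, which gives the strand, 31 (62.0%, interval 47.2% to 75.3%) had a RUNX2 peak at the start side and 3 (6.0%) at the far end, against 48.9% and 8.13% of 15843 genes. For MTA1 these were 34 (68.0%, 53.3% to 80.5%) and 2 (4.0%), against 51.0% and 6.76%. The peak spanned the annotated start at 20 members (40.0%) for RUNX2 and 24 (48.0%) for MTA1, against 27.4% and 33.3%. With upstream positions negative, the median centre lay at -114 bp from the start for RUNX2 (quartiles -165 and 11 bp) and at -115 bp for MTA1 (-170 and -20 bp), and at -73 and -70 bp over all genes.

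**Figure D4:**
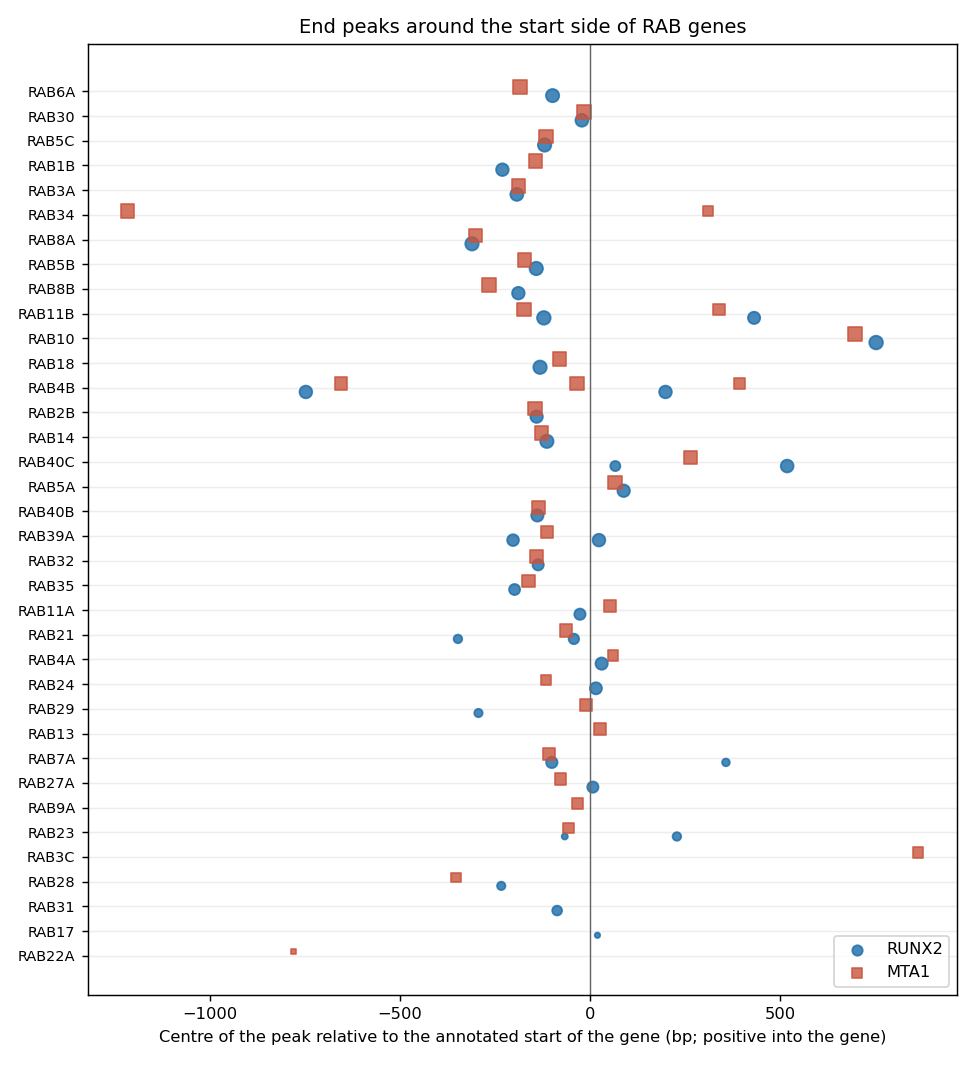
The centre of each end peak at the start side is plotted relative to the annotated start of the gene (x axis, bp, positive into the gene) for the RAB genes with a known strand, with larger symbols for higher positions in the list. Most centres lie close upstream of the start, with RAB34 at -1217 bp and RAB10 at 752 and 696 bp as outlying positions.

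Inside peaks were about as common in RAB genes as in others. A RUNX2 inside peak was present in 31 members, or 49.2% (36.4% to 62.1%), against 44.7% of all genes, and an MTA1 inside peak in 24, or 38.1% (26.1% to 51.2%), against 36.5%. Their highest inside peaks were lower in the list than those of all genes, with a median percentile below of 59.4% against 66.3% for RUNX2 and 51.5% against 62.2% for MTA1. The inside share followed gene length: with the genes in 4 classes of length, each holding as many of all genes, it was from short to long 0, 29.4%, 70.0% and 75.0% of 10, 17, 20 and 16 members for RUNX2, and 6.89%, 32.6%, 57.9% and 81.6% of all genes. For MTA1 it was 0, 17.6%, 50% and 68.8% of members and 5.03%, 25.5%, 45.1% and 70.4% of all genes.

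Counted as peaks, the members held 101 RUNX2 and 59 MTA1 inside peaks, or 33.0 and 19.3 per Mb of inner gene length, against 22.5 and 14.7 over all genes. Length was not matched in these rates, and the longest gene had 372 kb among the members and 2470 kb among all genes. RAB31 accounted for part of the higher rates. This gene of 154 kb held 17 RUNX2 and 9 MTA1 inside peaks, or 112 and 59.1 per Mb, and without it the members had 28.9 and 17.2 per Mb. All 9 of its MTA1 inside peaks overlapped a RUNX2 inside peak. The RUNX2 peaks had a median percentile below of 76.1% and 3 lay in the top 10%, while the MTA1 peaks had a median of 64.8% and none reached it. RAB31 thus had its strong peaks in the gene body and a weak RUNX2 peak, with no MTA1 peak, at its start.

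The next members by number of inside peaks were RAB33A, RAB8B, RAB27B and RAB30. RAB33A, X-linked and with no end peak, held 7 RUNX2 and 5 MTA1 inside peaks in 74.2 kb, or 96.9 and 69.2 per Mb. All 5 MTA1 peaks overlapped a RUNX2 peak, but 1 such pair lay at the end of AIFM1. RAB8B held 8 and 3 in 78.2 kb. RAB27B, which docks secretory vesicles and exosome-bearing endosomes at the plasma membrane, had no end peak but held 5 of each in 178 kb. RAB30 held 4 RUNX2 and 6 MTA1 inside peaks in 98.8 kb, weak beside its end peak, with medians of 46.3% and 15.5% below.

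RAB27B carried the highest inside pair of the family. Its RUNX2 peak at chr18:54776282-54776778 scored 45.5 (rank 1244, 98.0% below) and its MTA1 peak at chr18:54776258-54776608 scored 32.1 (rank 1676, 96.1% below). Neither touched a promoter entry of RAB27B. A second entry of the gene, well inside it, was touched by a weaker pair, RUNX2 at chr18:54828302-54828721 with a score of 7.26 (55.5% below) and MTA1 at chr18:54828336-54828630 with 10.5 (66.7% below), so an annotated alternative start lies there although the gene counts as without an end peak. By score, the strongest RUNX2 peak was higher than any RUNX2 end peak of a RAB gene.

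**Figure D5:**
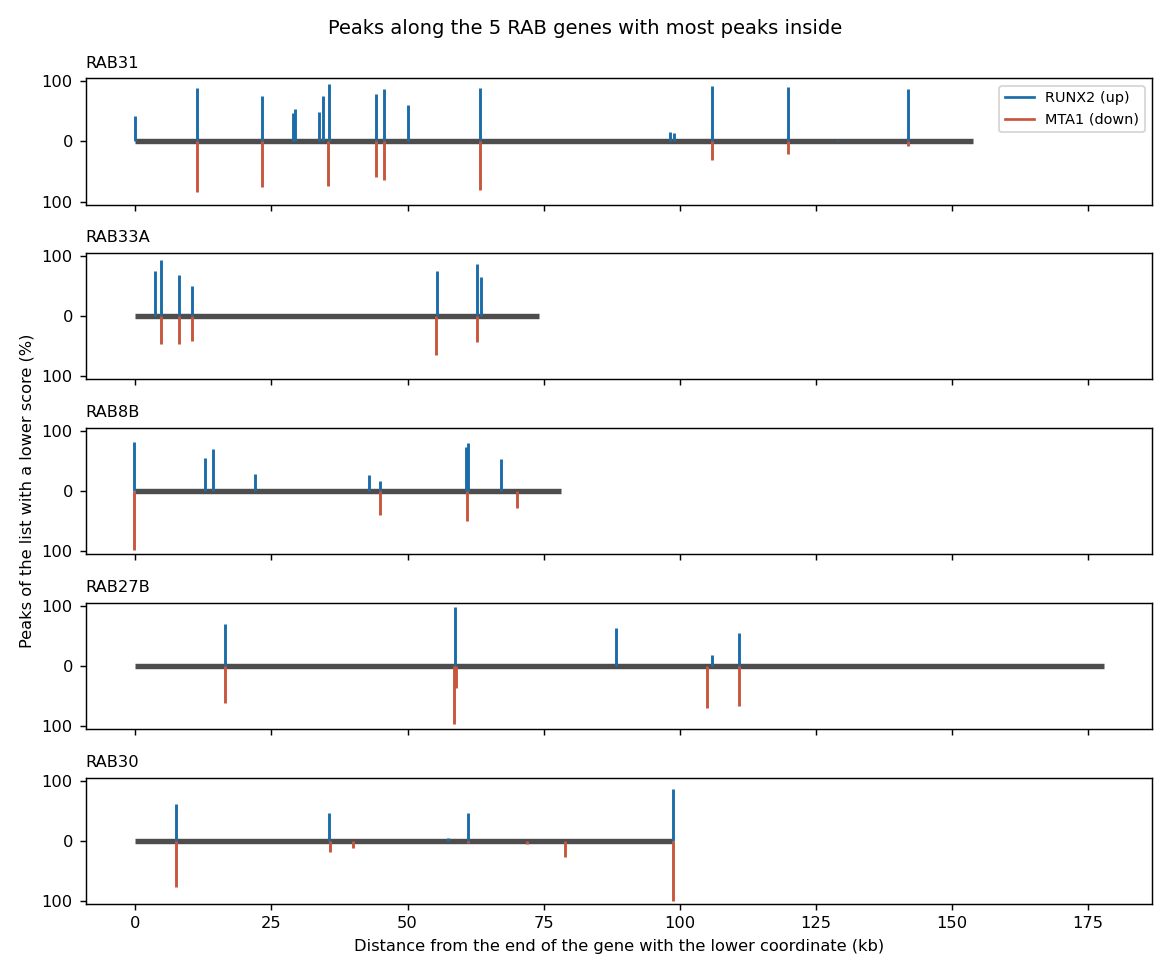
Peaks along the 5 RAB genes with most inside peaks are drawn at their distance from the end of the gene with the lower coordinate (x axis, kb), with RUNX2 peaks upward and MTA1 peaks downward and their height the share of the list that scores lower (%); end peaks are included. RAB31 holds 17 RUNX2 and 9 MTA1 inside peaks over 154 kb, and in RAB27B the tallest pair lies well inside the gene.

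No peak of either list lay at an end or inside 9 members, or 14.3% (6.75% to 25.4%), against 25.0% of all genes. These were RAB3D, RAB6C, RAB6D, RAB9B, RAB19, RAB39B, RAB40A, RAB41 and RAB42. A further 9 had inside peaks only, namely RAB3B, RAB6B, RAB7B, RAB27B, RAB33A, RAB33B, RAB37, RAB43 and RAB44. The X chromosome held 4 of the 9 genes without any peak. Of the 6 X-linked members none had a RUNX2 end peak, which allows a share of up to 45.9%, and 1 (RAB9A) had an MTA1 end peak, against 30.7% and 34.6% of the 848 X-linked protein-coding genes. An alternative chosen after seeing the data left out the X chromosome. Of the remaining 57 RAB genes, 68.4% had a RUNX2 end peak, 70.2% an MTA1 end peak and 61.4% both. These shares were 50.7%, 51.7% and 44.6% of all protein-coding genes outside X. Since only 1 of the 6 X-linked members had an end peak, leaving them out had to raise the RAB shares. The rise is therefore no further evidence of a difference from all genes.

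The partners of the RAB proteins were counted in the same way. Of 68 regulators (exchange factors, GTPase-activating proteins and the carriers that hold RABs in the cytosol), 79.4% had a RUNX2 end peak, 77.9% an MTA1 end peak and 69.1% both, against 49.9%, 50.9% and 43.9% of all genes. Of 51 effectors these were 58.8%, 68.6% and 56.9%. Inside peaks were more frequent in both lists than in the RAB genes, at 66.2% and 54.4% of regulators and 76.5% and 66.7% of effectors for RUNX2 and MTA1, against 44.7% and 36.5% of all genes. These partners are longer genes, with a median length of 71.4 kb for regulators and 63.7 kb for effectors against 30.0 kb for the RAB genes and 24.1 kb for all genes, and length was not matched. An MTA1 end peak of the top 10% was present at 16.2% of regulators (8.36% to 27.1%) and 13.7% of effectors (5.7% to 26.3%). It was present at 28.6% of the RAB genes themselves (17.9% to 41.3%) and 13.6% of all genes. The intervals of both partner sets overlap that of the RAB genes.

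For ARF, ARL and RAS genes, other small GTPases, the shares were counted too. Of 26 ARF and ARL genes, which act in vesicle budding and cilia, 80.8% had a RUNX2 end peak and 84.6% an MTA1 end peak, and 30.8% (14.3% to 51.8%) had an MTA1 end peak in the top 10%. Of 24 RAS genes, which act in growth signalling, the end shares were 62.5% and 54.2% and the MTA1 share in the top 10% was 20.8% (7.13% to 42.2%). The intervals of these genes overlap that of the RAB genes, so the high share of strong MTA1 peaks is not shown to be particular to the RAB genes.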

How the data were processed

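CUT&Tag peak lists of 2 libraries from MDA-MB-231 cells, 1 per antibody, were used. The authors aligned the reads, called peaks in each library separately and deposited 5 columns without a header, holding the position of each peak, a name and a score. The submitters' processing notes list CASAVA 1.4, Bowtie 0.12.8, MACS, MACS2 and the build hg19, with no role or order. The scale of the deposited score, the threshold and any control are not given in the sources used here, so only ranks within a list were compared.

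Peaks on chromosomes 1 to 22, X and Y were assigned to genes of the RefSeq table of GRCh38 by position, with 1 kb around either end, and positions were made 1-based. No coordinates of that table are printed, since the labels name another build. Strand and promoter sequences came from RefSeq promoters of GRCh38.p14, which covered 79.4% of members, and 13 members had more than 1 entry. Depth is unknown, and exact (Clopper-Pearson) 95% intervals cover counting error over genes only. With 1 library per antibody no p-value was computed. The step that assigns peaks was tested on simulated data with end peaks planted at 200 of 400 genes, and all 200 were recovered. Scripts ran in Python 3.11.15, with scipy 1.17.1 for intervals, pandas 2.3.3 and numpy 2.4.6 for tables, and matplotlib 3.10.9 for figures.

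The members, the lists of roles, regulators, effectors and ARF, ARL and RAS genes and the comparisons were chosen with earlier results of these data known. A further family of small GTPases was counted and is not reported here. Members given with values were the 8 with the highest end-peak score in each list, those with an end peak in a single list, those without any peak, the 5 with most inside peaks, and the highest and lowest of each role group by mean position. RAB29 and the promoters of RAB6B and RAB3D were chosen after their values were seen. Alternatives were dropping peaks that score under the median, keeping the top 10000 peaks, no peaks of the narrowest width, a window of 3 kb, peak centres, the start side only, and an overlap of 50% of both peaks. Leaving out peaks shared with another protein-coding gene, leaving out the X chromosome and a gapped motif were added after seeing the data.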

Additional observations from a re-analysis of the deposited data

How the results depend on the processing

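The shares of RAB genes with an end peak stayed above those of all protein-coding genes under every alternative run. These alternatives reuse the same peaks and are not independent of one another. For RUNX2 the interval of the RAB genes included the share of all genes in the main count. It also did so at the start side (47.2% to 75.3% against 48.9%) and among the top 10000 peaks (10.2% to 30.9% against 14.5%). Of 40 alternative values for the RAB genes, 30 stayed within the range set for them and 10 moved. This range was the counting interval of the main value for a share, its quartiles for a median position, and 1.5 times for the count of overlapping peaks. When peaks scoring under the median were dropped, 30.2% of RAB genes had a RUNX2 inside peak (29.0% of all genes) and 22.2% an MTA1 inside peak (22.6%). With the top 10000 peaks by score, 19.0% had a RUNX2 end peak (14.5%), 36.5% an MTA1 end peak (24.6%) and 19.0% both (12.2%), and inside peaks were present in 11.1% for RUNX2 (13.4%) and 9.52% for MTA1 (12.3%). Without end peaks shared with another protein-coding gene, 47.6% had a RUNX2 end peak (36.1%), 50.8% an MTA1 end peak (36.1%) and 41.3% both (30.2%). These alternatives keep fewer peaks, which lowers every share. The inside difference from all genes turned for both lists among the top 10000 peaks, and for MTA1 also at the median score and with a window of 3 kb (31.7% against 32.2%). Requiring an overlap of 50% of both peaks left 29 of 34 members with overlapping end peaks. No paired analysis was possible because each antibody has 1 library and no result comes from a test. For the same reason no replicate could be left out. Depth, the score scale and reads that map to several RAB copies limit what a missing peak means.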

Other observations

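Reading the promoters of the highest MTA1 peaks, the letters ACTACANNTCCC, in which N is any base, were seen in RAB30 and RAB5C. These letters are part of a longer promoter element that the zinc finger protein ZNF143 is known to recognise. The motif was chosen after the sequences and ranks were seen, so the counts that follow describe the same data. On either strand it was in 464 of 15843 promoters, or 2.93%. Of the genes with it, 86.6% had an MTA1 end peak and 49.6% one in the top 10% of scores, against 52.6% and 13.7% of the 15379 genes without it. For RUNX2 the shares were 78.4% and 20.9%, against 51.4% and 9.03%. For a gene with several entries the one most covered by peaks was searched, so the window searched depended on the peaks compared. Base composition and shared promoters of these genes were not matched.

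Among the 50 RAB genes with a promoter entry the motif was in RAB30, RAB5C, RAB8B, RAB29, RAB3C and RAB19. Because the motif was chosen from RAB30 and RAB5C, this list does not measure whether the family holds it more often than other genes. RAB30, RAB5C and RAB8B had MTA1 end peaks at ranks 3, 35 and 914 of 42683, RAB29 had 72.6% of the list below its peak and RAB3C 54.6%, and RAB19 had no end peak. The windows of RAB6A and RAB1B, with MTA1 peaks at ranks 19 and 164, did not hold these letters.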
